A study of Mus musculus with 5 samples.

Results

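The cell cycle genes described here are 38 of the 32285 genes counted in nuclei of mouse hindlimb muscle. They were chosen by name for their known place in the division cycle, with earlier results of these data known. Of them 13 serve entry into and passage through DNA replication (G1/S): Ccnd1, Ccne1, Ccne2, E2f1, E2f2, Mcm3, Mcm5, Mcm6, Pola1, Rrm2, Brca1, Atad2 and Hells. Another 22 serve chromosome condensation, the spindle, the kinetochore and cytokinesis (G2/M): Mki67, Top2a, Cenpf, Cenpe, Aspm, Anln, Nusap1, Kif11, Kif15, Kif23, Kif4, Knl1, Bub1, Bub1b, Ccnb1, Ccna2, Cdk1, Plk1, Aurkb, Tpx2, Smc4 and Ect2. The remaining 3, Esco2, Neil3 and Diaph3, were put in neither group.

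The 10x Multiome assay, which reads RNA molecules (UMIs) and open chromatin (ATAC) from each nucleus, had been applied to hindlimb muscle. Each of the 5 groups was 1 library: wild type (WT) C57bl6n mice of E14.5, of E18.5, of P5 and adult, and Cacna1s KO fetuses (Cacna1s-/-) at E18.5, which lack the voltage sensor of excitation-contraction coupling through a germline allele in which a cassette takes the place of coding sequence. The labels give no age for the adult. The libraries pooled 56, 14, 8 and 4 hindlimbs of the WT stages and 26 of the KO, dissected without skin and bone and frozen. Nuclei with and without PCM1, a protein of the myonuclear envelope, were sorted apart with the help of a PCNA antibody used to mark all nuclei, and were mixed in equal volumes, so the shares of cell types were set by the mix. PCNA is itself a replication protein, and its part in the shares of cycling nuclei was not tested. With no replicate of any group, no test between groups was possible, and every 95% interval below covers counting error only. Intervals of levels and ratios take each UMI as a separate draw, though UMIs can sit together in few nuclei.

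The libraries listed 3621 to 5407 barcodes with 21394846 to 49913899 UMIs in all, and 3229 to 5117 nuclei had 400 to 25000 UMIs and were kept. Nuclei in which the sarcomere genes Ttn, Neb, Trdn and Ryr1 made up more than 1.5% of UMIs (4% in the adult) were called myonuclei: 1814 for E14.5, 1571 for E18.5, 1767 for P5, 4393 for the adult and 982 for the KO. Below that limit, nuclei with a UMI of 1 of 4 marker genes formed the other classes. In the same order there were 194, 141, 67, 24 and 284 Pax7 nuclei, 1262, 1330, 778, 137 and 898 Pdgfra nuclei, 108, 125, 94, 14 and 98 Pecam1 nuclei and 31, 56, 68, 19 and 88 Ptprc nuclei. Marker lists were then counted in each class. They include the gene that defines the class, so part of each sum and contrast was set by the rule. In Pax7 nuclei of each library 7 of 7 muscle stem cell markers were found, at 1142 to 4614 CPM summed, against 58.2 to 103 CPM in Pdgfra nuclei. In Pdgfra nuclei 7 of 7 mesenchymal markers were found, at 2894 to 7674 CPM. In adult Pecam1 nuclei Cdh5 was at 0 and in adult Ptprc nuclei Cd68, with the other 6 of 7 markers of each list found. Pairs of libraries shared 17 to 47 barcodes. Cacna1s stood at 188 CPM in WT and 0.731 CPM in KO myonuclei at E18.5, so the KO label was met.

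A dividing cell copies its DNA once and then separates the copies. Cyclins D and E and the E2F factors start the first step, and the MCM helicase and DNA polymerases carry it out. In resting cells the pocket proteins, as part of the DREAM complex, keep genes of both steps off, and B-MYB and FOXM1 later switch on the genes of mitosis through promoter elements known as CHR and CCAAT boxes. Muscle stem cells (Pax7) and mesenchymal progenitors (Pdgfra) divide while the limb grows. Myonuclei come from fused myoblasts that have left the cycle for good.

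Promoters of both groups are shown first, since the results are laid out by the same division into G1/S and G2/M genes. A window from 250 bases before to 50 after the start was found in RefSeq (GRCm38.p6) within 500 bases of the start in the files for 29 of the 38 genes. Windows were searched on both strands for TTTGAA, the core of the CHR element, for CCAAT, and for TTTCCCGC, TTTGGCGC and TTTCGCGC, all E2F-type motifs. Capitals mark every match, and matches that overlap or touch run together. For G2/M the windows of Top2a (topoisomerase II alpha, chr11:99024140-99024439, minus strand), Mki67 (a coat protein of mitotic chromosomes, chr7:135716330-135716629, minus strand) and Cdk1 (the mitotic kinase, chr10:69352863-69353162, minus strand) are printed 5′ to 3′.
Top2a: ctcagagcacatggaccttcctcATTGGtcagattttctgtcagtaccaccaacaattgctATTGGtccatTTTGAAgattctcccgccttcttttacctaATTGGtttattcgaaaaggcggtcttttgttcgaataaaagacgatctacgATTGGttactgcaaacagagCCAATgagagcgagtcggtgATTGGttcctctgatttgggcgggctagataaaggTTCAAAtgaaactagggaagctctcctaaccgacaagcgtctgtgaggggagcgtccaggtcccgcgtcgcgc
Mki67: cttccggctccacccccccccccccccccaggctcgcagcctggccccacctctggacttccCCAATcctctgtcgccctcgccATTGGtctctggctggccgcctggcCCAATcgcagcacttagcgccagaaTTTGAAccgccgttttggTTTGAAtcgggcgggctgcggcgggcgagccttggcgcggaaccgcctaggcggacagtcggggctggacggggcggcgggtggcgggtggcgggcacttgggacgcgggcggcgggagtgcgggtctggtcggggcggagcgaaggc
Cdk1: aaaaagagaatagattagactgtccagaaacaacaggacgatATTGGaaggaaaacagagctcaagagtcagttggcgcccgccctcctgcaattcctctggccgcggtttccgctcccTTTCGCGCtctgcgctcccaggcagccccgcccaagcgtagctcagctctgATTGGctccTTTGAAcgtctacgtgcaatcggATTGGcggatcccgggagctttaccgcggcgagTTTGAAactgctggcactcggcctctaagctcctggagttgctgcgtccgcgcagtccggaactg
For G1/S the windows of 3 helicase subunits follow, Mcm6 (chr1:128359656-128359955, minus strand), Mcm3 (chr1:20820263-20820562, minus strand) and Mcm5 (chr8:75109259-75109558, plus strand).
Mcm6: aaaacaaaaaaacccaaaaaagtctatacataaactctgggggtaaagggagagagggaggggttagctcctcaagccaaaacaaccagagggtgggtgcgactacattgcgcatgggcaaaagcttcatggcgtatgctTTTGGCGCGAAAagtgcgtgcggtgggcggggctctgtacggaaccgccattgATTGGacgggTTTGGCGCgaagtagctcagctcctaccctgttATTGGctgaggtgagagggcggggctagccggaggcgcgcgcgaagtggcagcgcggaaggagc
Mcm3: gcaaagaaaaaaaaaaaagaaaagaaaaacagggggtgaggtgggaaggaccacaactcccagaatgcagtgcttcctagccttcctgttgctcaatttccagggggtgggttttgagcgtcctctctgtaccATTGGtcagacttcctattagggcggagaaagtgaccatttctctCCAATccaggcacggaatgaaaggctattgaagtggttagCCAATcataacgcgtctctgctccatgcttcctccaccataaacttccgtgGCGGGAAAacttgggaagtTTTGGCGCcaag
Mcm5: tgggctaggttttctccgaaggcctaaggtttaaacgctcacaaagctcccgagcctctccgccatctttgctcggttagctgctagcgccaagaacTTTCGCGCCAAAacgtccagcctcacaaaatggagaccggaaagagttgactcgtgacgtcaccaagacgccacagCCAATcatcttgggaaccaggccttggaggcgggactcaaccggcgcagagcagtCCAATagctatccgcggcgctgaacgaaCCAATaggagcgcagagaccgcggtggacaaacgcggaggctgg

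The Top2a window holds TTTGAA once on each strand with 6 CCAAT boxes, and the Mki67 and Cdk1 windows hold TTTGAA 2 times each with 3 CCAAT boxes, next to 1 E2F-type motif in Cdk1. The helicase windows hold no TTTGAA, and each has E2F-type motifs on both strands. Over all members with a window, TTTGAA was in 14 of 18 G2/M windows (77.8%) and in 0 of 10 G1/S windows, against 15.6% of 17228 promoter windows. An E2F-type motif was in 6 of 10 G1/S windows (60%) and 2 of 18 G2/M windows (11.1%), against 2.41% of all. CCAAT did not separate the groups, with 14 of 18 and 7 of 10, against 38.4% of all windows. TTTGAA and CCAAT stood together in 11 of 18 G2/M windows (61.1%) and in 6.13% of all. A match describes the letters and shows no binding.

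Summed over the group, G2/M genes were highest in Pax7 nuclei before birth and lowest in adult myonuclei. Values are UMIs per 1000000 UMIs of the class (CPM). Introns are counted, so CPM is not corrected for gene length, and levels are compared between classes or libraries and not between genes. In Pax7 nuclei the G2/M sum was 4633 CPM for E14.5, 4834 for E18.5, 2727 for P5, 135 for the adult (4 UMIs) and 5205 for the KO. In Pdgfra nuclei it was 1488, 2290, 1007, 51.4 (15 UMIs) and 2884 CPM. In myonuclei it was 113, 291, 123, 22.5 and 411 CPM. The order Pax7, Pdgfra, myonuclei held in each of the 5 libraries, with adult Pax7 and Pdgfra nuclei too close to be told apart by counting error. The G1/S sum followed the same order with smaller steps: 2364, 2856, 2030, 269 and 2526 CPM in Pax7 nuclei, 986, 1119, 643, 140 and 1071 CPM in Pdgfra nuclei and 168, 206, 150, 76.5 and 225 CPM in myonuclei. The G1/S sum leans on Pola1, the G1/S gene with most UMIs. Without Pola1 its steps between stages were larger in Pdgfra nuclei and myonuclei, as given in the section on processing. A sum cannot tell fewer cycling nuclei from less RNA in each. Shares of nuclei are given further on.

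**Figure D1:**
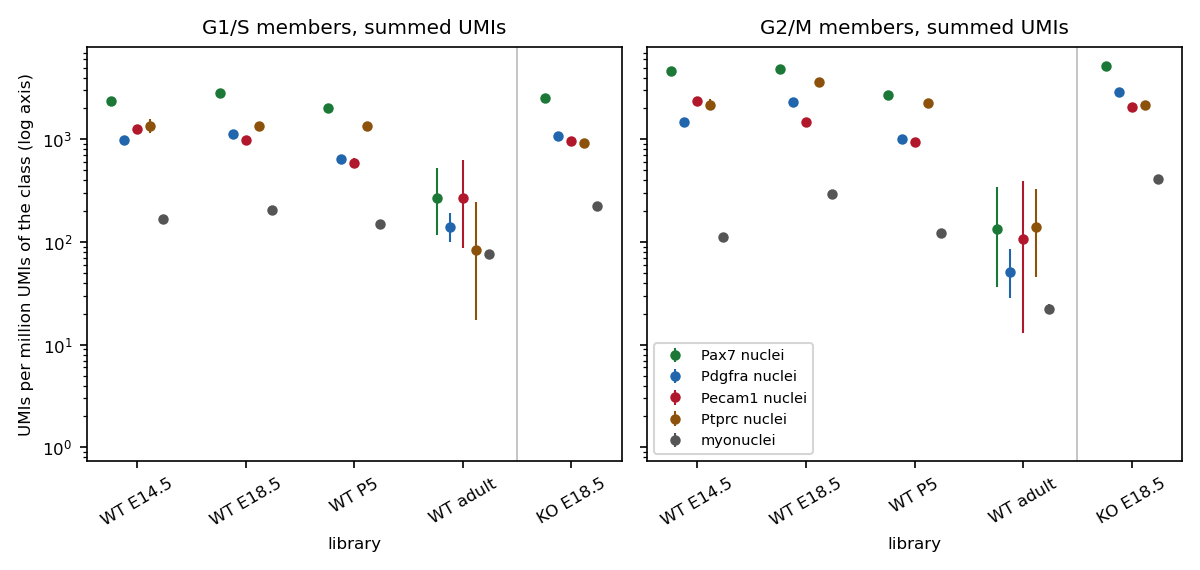
Summed UMIs of the 13 G1/S genes (left) and the 22 G2/M genes (right) in each class of nuclei, in CPM on a log axis, by library; bars are exact 95% Poisson intervals, shorter than the point for most sums. Before the adult, Pax7 nuclei lie highest and myonuclei lowest in both panels, and the adult G2/M sums lie between 22.5 CPM (myonuclei) and 140 CPM (Ptprc nuclei, 5 UMIs).

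In Pdgfra nuclei the G2/M sum at E18.5 was 1.54 times that at E14.5 (1.5 to 1.58), and all 22 G2/M genes were above 1. Of the 38 members 35 were higher at any size, against 50.5% of 14748 genes. Only E2f1, Nusap1, Ccna2 and Neil3 reached 2-fold, that is 4 of 38 (8.56% of all genes). The median log2 ratio was 0.59 for G2/M genes, 0.25 for G1/S genes and 0.01 for all genes. Top2a, which untangles DNA before chromosomes part, was at 164 CPM at E14.5 and 326 CPM at E18.5, a ratio of 1.99 (1.84 to 2.14). Smc4, a core subunit of condensin, went from 177 to 261 CPM, Kif15, a spindle kinesin, from 118 to 152 CPM, and Knl1, the scaffold of the kinetochore, from 93.1 to 156 CPM. Each of these 4 was higher at E18.5 beyond counting error. Ccna2 (cyclin A2) had the highest ratio, 2.46 (1.80 to 3.42). G1/S genes were divided: Pola1, the catalytic subunit of DNA polymerase alpha, was at 387 and 392 CPM, Atad2, a bromodomain ATPase, at 187 and 258 CPM, Mcm6 at 69.6 and 80.3 CPM, and Hells, a chromatin remodeller of the SNF2 family, had the lowest ratio at 0.825 (0.753 to 0.903; 149 and 123 CPM).

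From E18.5 to P5 the direction turned in Pdgfra nuclei, and all 38 members were lower at P5, as were 61.4% of 14215 genes. By at least 2-fold 28 of 38 were lower, against 9.04% of 14215 genes, 19 of 22 among G2/M and 7 of 13 among G1/S genes. The sums were 0.440 (0.426 to 0.454) and 0.574 (0.551 to 0.599) times those at E18.5. The median log2 ratio was -1.14 for G2/M, -1.01 for G1/S and -0.14 for all genes. Top2a was at 111 CPM at P5, 0.341 times its E18.5 level (0.310 to 0.376), Smc4 at 138 CPM, Knl1 at 77.6 CPM and Kif15 at 75.8 CPM. Ccne2 (cyclin E2) had the lowest ratio, 0.277 (0.209 to 0.362; 50.4 and 14.0 CPM), and Pola1 the highest, 0.731 (0.685 to 0.780; 286 CPM at P5). Atad2 was at 121, Hells at 81.7 and Mcm6 at 41.3 CPM. Pdgfra nuclei also held tenocyte markers at 158, 179, 191, 17.1 and 146 CPM summed, in the order of libraries used above, and chondrocyte markers at 73.3, 103, 38.1, 0 and 22.8 CPM, and the part of these cells in the differences was not tested. This comparison, the one with E14.5 and the one with the KO share the WT E18.5 library, so they are not independent.

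The 137 adult Pdgfra nuclei held 56 UMIs of the 35 G1/S and G2/M genes. Against P5, 30 of 37 members were at least 2-fold lower, where 18.7% of 11570 genes were; a gene with no UMI was set to 3 counts per class and library. Top2a, Kif15 and Knl1 had no UMI and were at least 10.8-fold, 7.38-fold and 7.56-fold lower. Smc4 kept 34.2 CPM (10 UMIs; ratio 0.249, 0.119 to 0.461) and Pola1 99.3 CPM (29 UMIs; ratio 0.347, 0.231 to 0.501). Most of what was left was therefore Pola1 and Smc4. The G1/S sum was 0.218 times that at P5 (0.156 to 0.297) and the G2/M sum 0.0510 times (0.0285 to 0.0842). UMIs of G1/S over those of G2/M genes came to 0.662 for E14.5, 0.489 for E18.5, 0.638 for P5 and 2.73 (1.48 to 5.32) for the adult. The adult value rests on 41 and 15 UMIs. Of the 41, 29 were of Pola1, so it does not describe the G1/S genes as a group.

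**Figure D2:**
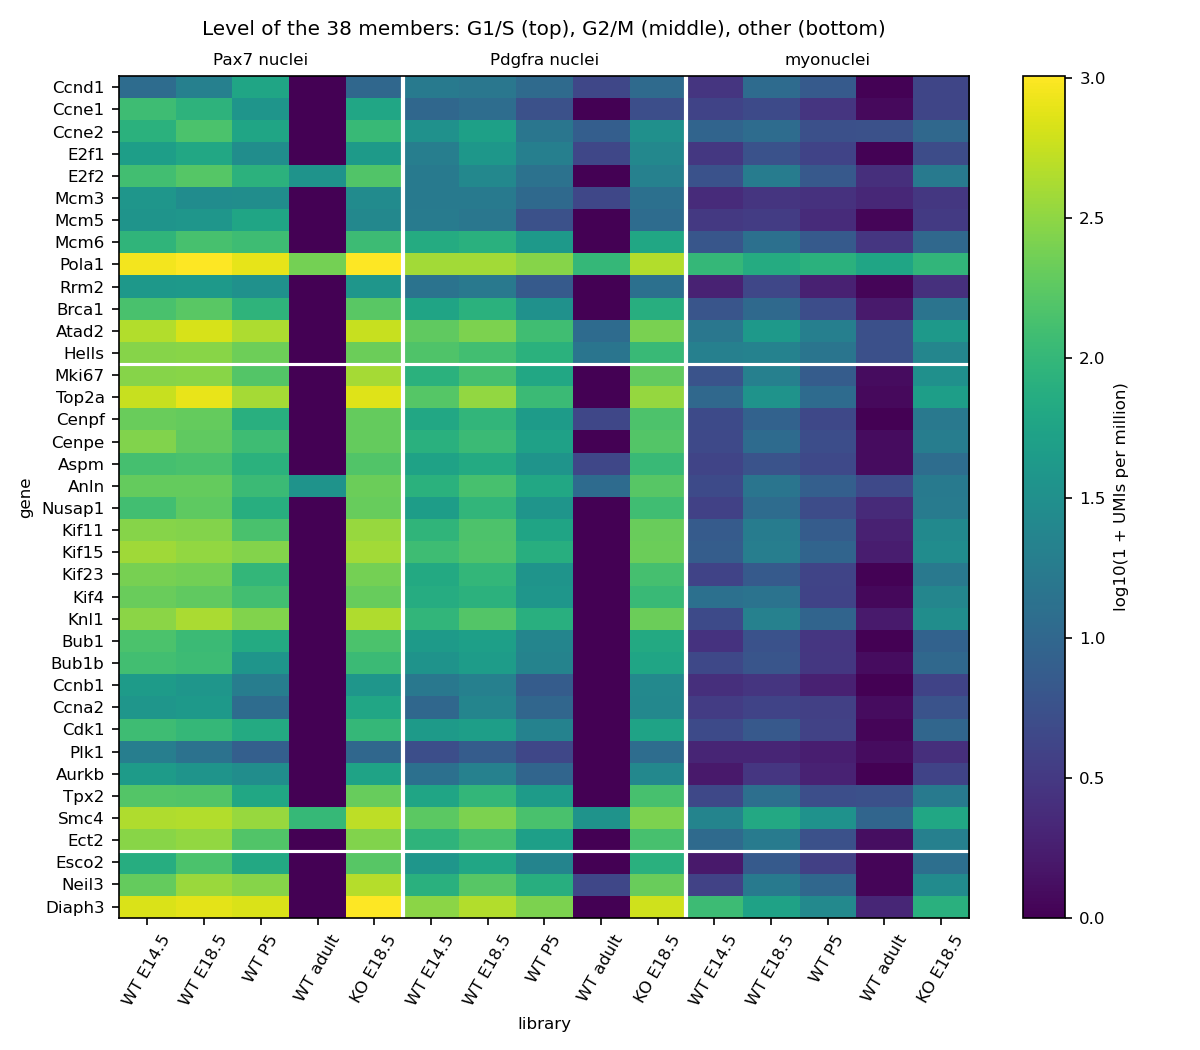
Level of each of the 38 genes (rows, white lines between G1/S, G2/M and the 3 other genes) in Pax7 nuclei, Pdgfra nuclei and myonuclei of the 5 libraries (columns), as log10 of 1 plus CPM. Adult columns are dark for most genes, which in the 24 Pax7 nuclei means no UMI, and Diaph3 is bright in E14.5 myonuclei (115 CPM).

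In Pax7 nuclei the stages followed another course before birth. From E14.5 to E18.5 the G1/S sum was 1.21 times as high (1.14 to 1.29) and 11 of 13 G1/S genes were above 1. Taking Pax7 nuclei whatever the other 3 markers showed, that ratio was 1.01, so the difference was lost. The G2/M sum, at 1.04 (0.997 to 1.09), did not differ beyond counting error and 8 of 22 were above 1; with at least 2 UMIs of Pax7 as the limit it was 0.796. Over all members 22 of 38 were higher, against 47.7% of 8674 genes. Pola1 went from 892 to 1013 CPM, Atad2 from 459 to 660 CPM, Hells from 289 to 299 CPM and Brca1, a DNA repair gene, from 137 to 171 CPM. Atad2 (1.44, 1.25 to 1.65) and Pola1 (1.14, 1.03 to 1.26) differed beyond counting error. Top2a went from 573 to 809 CPM and Knl1 from 302 to 420 CPM, but Smc4 stood at 444 and 453 CPM and Kif15 at 379 and 330 CPM. Esco2, which acetylates cohesin, had the highest ratio, 1.95 (1.41 to 2.72), and Plk1, the Polo kinase, the lowest, 0.672 (0.262 to 1.62).

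At P5 the sums in Pax7 nuclei were 0.564 (0.521 to 0.610; G2/M) and 0.711 (0.647 to 0.780; G1/S) times those at E18.5. At least 2-fold lower were 14 of 37 members, against 10.2% of 7234 genes, 10 of them among 21 G2/M genes. Top2a was at 398 CPM, 0.492 times its E18.5 level (0.398 to 0.603), Smc4 at 352, Kif15 at 277 and Knl1 at 270 CPM, and Pola1 at 786, Atad2 at 437, Hells at 221 and Brca1 at 88.9 CPM. These 8 were lower at P5, Kif15 within counting error (0.841, 0.643 to 1.09). Ccna2 had the lowest ratio, 0.257 (0.0501 to 0.825; 3 UMIs at P5). Ccnd1, the D-type cyclin that answers growth signals, went the other way with the highest ratio, 2.93 (1.34 to 6.49; 19.4 and 56.9 CPM, 14 and 16 UMIs). In the 24 adult Pax7 nuclei 12 UMIs of the 35 genes remained, 7 of Pola1 and 3 of Smc4 among them, and the G2/M sum was 0.0494 times that at P5 (0.0134 to 0.127).

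The classes with few nuclei did not all move like Pdgfra nuclei. In Pecam1 nuclei, the endothelial class, the G2/M sum was 2371 CPM for E14.5, 1471 for E18.5, 948 for P5, 108 for the adult (2 UMIs) and 2084 for the KO, and 30 of 34 members were lower at E18.5 than at E14.5, against 51.0% of 8264 genes. Aspm, a spindle pole protein, had the lowest of these ratios, 0.282 (0.152 to 0.507). Top2a went from 286 to 216 CPM, Kif15 from 191 to 107 CPM and Kif11, the kinesin that pushes the spindle poles apart, from 157 to 105 CPM, while Smc4 stood at 229 and 250 CPM. In Ptprc nuclei, the immune class, the G2/M sum was 2186, 3594, 2247, 140 (5 UMIs) and 2144 CPM, with Top2a at 208, 458, 210, 0 and 233 CPM. The G1/S sum there stood at 1347, 1351 and 1339 CPM through P5. These classes held 31 to 125 nuclei before the adult, and the summed immune markers in Ptprc nuclei themselves ranged from 5111 CPM at E14.5 to 19202 CPM at E18.5; whether the kind of immune cell differed was not tested.

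Within a library, Pax7 nuclei held more RNA of the members than Pdgfra nuclei. At least 2-fold higher were 35 of 38 members for E14.5 (11.9% of all genes), 23 of 38 for E18.5 (11.7%), 31 of 37 for P5 (17.3%) and 18 of 38 for the KO (11.5%). The G2/M sum was 3.11 times (3.00 to 3.23), 2.11 times (2.04 to 2.19), 2.71 times (2.51 to 2.92) and 1.80 times (1.76 to 1.85) as high. The distance between both classes was thus widest at E14.5, where Pdgfra nuclei had the lower of their fetal levels. Myonuclei held less than Pdgfra nuclei: at least 2-fold lower were 38 of 38 members for E14.5 (27.7% of all genes), 36 of 38 for E18.5 (25.7%), 37 of 38 for P5 (33.4%) and 36 of 38 for the KO (24.4%). The G2/M sum was 13.2-fold, 7.88-fold, 8.21-fold and 7.01-fold lower in myonuclei, and the G1/S sum 5.86-fold, 5.44-fold, 4.30-fold and 4.77-fold lower.

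Between KO and WT at E18.5 the sums of both groups went apart in Pdgfra and Pax7 nuclei, but not in Ptprc nuclei, where both were lower (G2/M 0.597, 0.552 to 0.645; G1/S 0.687, 0.608 to 0.777), nor in myonuclei, where both were higher (G2/M 411 against 291 CPM, G1/S 225 against 206 CPM). The higher G1/S sum in KO myonuclei was not general. By gene 8 of 13 G1/S genes were lower there, and without Pola1 the sum was lower as well. In myonuclei with no UMI of the 4 markers the G1/S sum was 135.5 CPM in KO and 136.1 CPM in WT. In Pdgfra nuclei the KO had a higher G2/M sum (2884 against 2290 CPM, ratio 1.26, 1.24 to 1.28) and a G1/S sum just below that of the WT (1071 against 1119 CPM, ratio 0.957, 0.930 to 0.986). Above 1 were 21 of 22 G2/M genes, with Smc4 the exception, where 43.7% of 14827 genes were higher. Below 1 were 12 of 13 G1/S genes, with Pola1 the exception, where 56.3% of all genes were lower. The median log2 ratio was 0.41 for G2/M genes, -0.38 for G1/S genes and -0.08 for all genes. Few ratios were large. Kif15 was at 152 CPM in WT and 213 CPM in KO (1.40, 1.30 to 1.51) and Knl1 at 156 and 214 CPM (1.37, 1.27 to 1.47), while Top2a stood at 326 and 336 CPM (1.03, 0.978 to 1.09) and Smc4 at 261 and 256 CPM (0.980, 0.922 to 1.04). Plk1 had the highest ratio, 1.69 (1.19 to 2.41; 6.45 and 10.9 CPM). Ccne1 (cyclin E1) had the lowest, 0.400 (0.259 to 0.602; 10.8 and 4.31 CPM). Mcm6 was at 80.3 and 61.5 CPM (0.766, 0.680 to 0.862), Hells at 123 and 108 CPM (0.876, 0.799 to 0.960) and Atad2 at 258 and 248 CPM (0.962, 0.904 to 1.02), against Pola1 at 392 and 455 CPM (1.16, 1.11 to 1.22). Without Pola1, the G1/S gene with most UMIs, the G1/S ratio was 0.847, and with at least 2 UMIs of Pdgfra as the limit for the class it was 1.00. G1/S over G2/M UMIs came to 0.489 in WT and 0.372 (0.362 to 0.381) in KO.

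Other cell cycle genes were counted in Pdgfra nuclei as well, to be read against the shares of all genes given above (50.5% higher at E18.5 than at E14.5, 61.4% lower in P5 nuclei, 43.7% higher and 56.3% lower in KO nuclei). Of 34 further G2/M genes 34 were higher at E18.5 than at E14.5 and 34 were lower at P5 than at E18.5, and 33 of 34 were higher in the KO. The 3 with most UMIs were Hjurp, the chaperone that loads centromeric histone, at 229 CPM for E14.5, 368 for E18.5, 205 for P5, 106 for the adult and 397 for the KO, Ncapd2, a condensin subunit, at 51.1, 79.8, 37.4, 3.42 and 88.2 CPM, and Kif20b, a mitotic kinesin, at 74.2, 82.6, 46.0, 0 and 130 CPM. Hjurp thus kept more of its level in the adult than any of the G2/M members named above. Of 34 further G1/S genes 21 were higher at E18.5 than at E14.5, 34 lower in P5 nuclei and 28 lower in KO nuclei, the first of these near the share of all genes. The 3 with most UMIs were Nasp, a histone chaperone, at 198, 124, 45.1, 34.2 and 101 CPM, Brip1, a helicase that works with Brca1, at 108, 129, 61.4, 10.3 and 143 CPM, and Dtl, which directs replication factors to degradation, at 133, 133, 57.1, 0 and 123 CPM. Pcna, whose protein was the target of the antibody used in sorting, was at 31.7, 35.0, 13.8, 10.3 and 22.6 CPM. Nasp was lower in the KO and Brip1 higher, so the G1/S genes were not alike here either.

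The same division was seen in Pax7 nuclei at a smaller size. Above 1 were 17 of 22 G2/M genes (46.3% of 10270 genes) and below 1 were 12 of 13 G1/S genes (53.7%), with sums at 1.08 (1.04 to 1.12) and 0.884 (0.840 to 0.931). Top2a was at 809 CPM in WT and 731 CPM in KO, Smc4 at 453 and 505, Knl1 at 420 and 449 and Kif15 at 330 and 389 CPM. Aurkb, the kinase of the chromosomal passenger complex, had the highest ratio, 1.59 (1.02 to 2.55), and Ccnd1 the lowest, 0.472 (0.224 to 1.02). Pola1 stood at 1013 and 1006 CPM, Atad2 at 660 and 565, Hells at 299 and 211 (0.705, 0.598 to 0.834) and Brca1 at 171 and 174 CPM. Counting at least 2 UMIs of Pax7 as the limit for the class, 21 of 22 G2/M genes were above 1 and the sum ratio was 1.49, but 8 of 13 G1/S genes were below 1. Of the smaller classes, 25 of 35 members were higher in KO Pecam1 nuclei (46.6% of 9211 genes), with Esco2 highest at 2.41 (1.28 to 4.81), and 32 of 33 were lower in KO Ptprc nuclei (51.0% of 7068 genes), with Aspm lowest at 0.243 (0.148 to 0.389). The KO library was deeper in RNA, with a median of 7819 UMIs against 5936 in kept nuclei and 10.4% against 2.82% of barcodes above the upper limit, and with 1 library of each genotype the pool of fetuses and the genotype cannot be told apart.

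**Figure D3:**
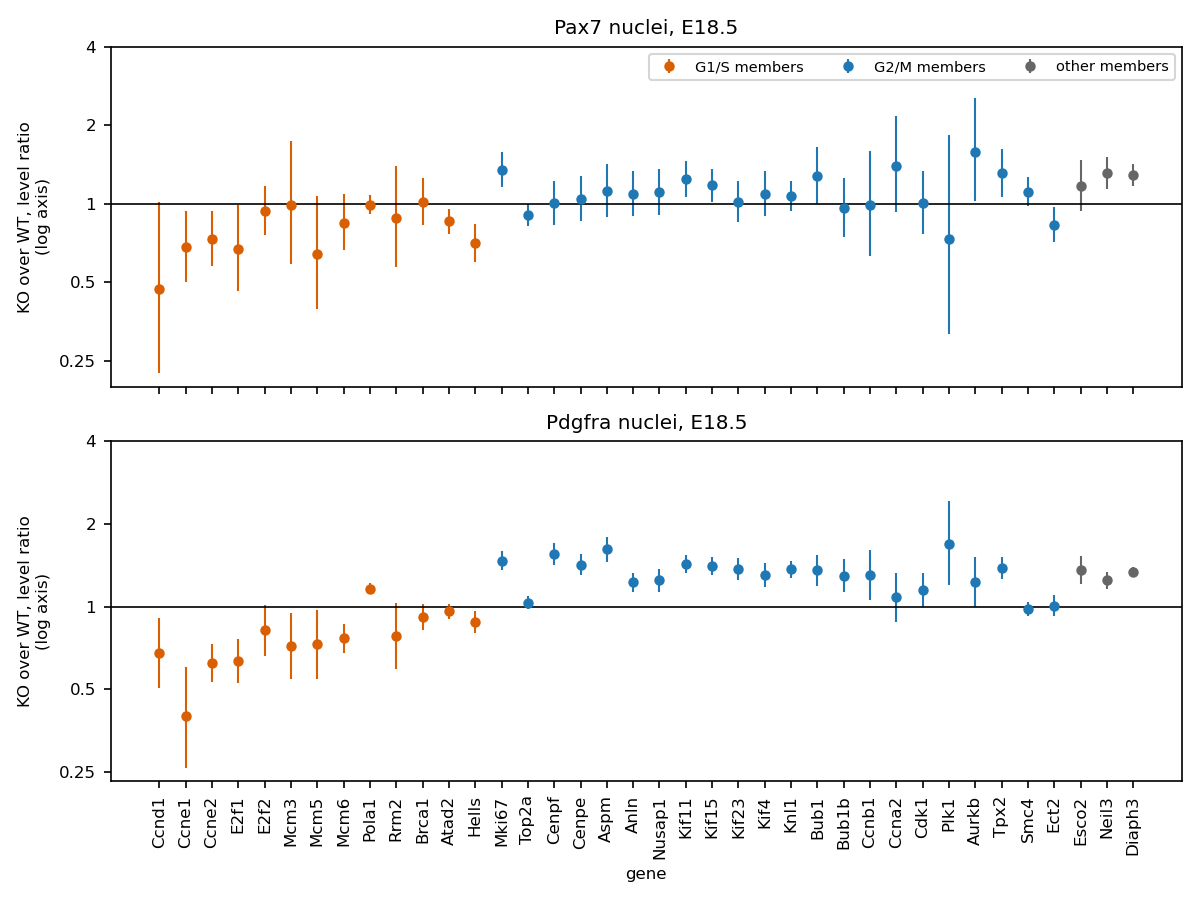
Ratio of the level in KO to that in WT at E18.5 for each of the 38 genes (log axis) in Pax7 nuclei (top) and Pdgfra nuclei (bottom), G1/S genes in orange, G2/M in blue and the 3 others in grey; bars are exact 95% intervals of counting error. In Pdgfra nuclei 12 of 13 orange points lie below 1 and 21 of 22 blue points above it.

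To count nuclei rather than RNA, each nucleus was thinned to 1000 UMIs and called G2/M-high with at least 3 UMIs of G2/M genes. Of Pax7 nuclei 48.7% (41.4 to 56.0) were G2/M-high for E14.5, 37.6% (29.6 to 46.1) for E18.5, 31.3% (20.6 to 43.8) for P5 and 45.8% (39.9 to 51.8) for the KO. Of Pdgfra nuclei 12.4% (10.6 to 14.4), 17.4% (15.4 to 19.6), 7.54% (5.78 to 9.64) and 20.6% (18 to 23.4) were. No adult nucleus deep enough to be thinned was G2/M-high, with 0 of 11 Pax7 nuclei (a share of up to 28.5%), 0 of 102 Pdgfra nuclei (up to 3.55%) and 0 of 3945 myonuclei (up to 0.0935%). Unthinned, the shares in Pdgfra nuclei were 22.8%, 32.6%, 14.52%, 0.730% (adult) and 33.0% (KO). Shares and sums in Pdgfra nuclei took the same order over the libraries, highest in the KO and lowest in the adult. Between KO and WT at E18.5, however, the intervals of the shares overlapped in both Pdgfra and Pax7 nuclei. In Pax7 nuclei the intervals for E14.5, E18.5, P5 and the KO all overlapped each other. In myonuclei of the same libraries, which should not divide, 0.506% for E14.5, 1.79% for E18.5, 0.596% for P5 and 3.91% for the KO were G2/M-high.

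The limit was not a gap: at E18.5 25 Pdgfra nuclei held 3 thinned G2/M UMIs and 42 held 2, against 205 with 4 or more and 916 with none. By the rule's own choice G2/M-high nuclei held most of the G2/M RNA, with 82.9% of the G2/M UMIs of Pdgfra nuclei for E14.5, 89.0% for E18.5, 86.9% for P5 and 93.7% for the KO. Within them the G2/M sum was 7030, 8628, 8566 and 9686 CPM, against 309, 328, 147 and 251 CPM in the other Pdgfra nuclei. The rule used these same UMIs, so both sets of values only describe what it picked. G2/M-high nuclei were also deeper. In Pdgfra nuclei their median was 5568 UMIs against 3642 in nuclei without a thinned G2/M UMI for E14.5, 8548 against 5424 for E18.5, 7009 against 4837 for P5 and 10836 against 6556 for the KO. ATAC counts, which the rule did not use, were higher as well: medians of 3037 against 2050, 5430 against 4151, 7744 against 4120 and 2109 against 1708. Other classes did not always follow. Pax7 nuclei at E18.5 had 3320 ATAC counts in G2/M-high nuclei and 5309 in those without, and at P5 5811 and 5762. Ptprc nuclei at E18.5 had 3112 and 3964, and Pecam1 nuclei at P5 2706 and 3263, with 5 G2/M-high nuclei in the latter.

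Each gene was then compared between G2/M-high nuclei and nuclei with no G2/M UMI after thinning, leaving the gene itself out of the call. Levels were taken before thinning. Since the call rests on the other G2/M genes, their ratios describe how far the group is found in the same nuclei and are no separate evidence. In Pdgfra nuclei G2/M genes had a median of 52.2-fold for E14.5, 73.2-fold for E18.5, 111-fold for P5 and 102-fold for the KO. Smc4 was the lowest at 7.74-fold (6.70 to 8.95), 8.02-fold (7.28 to 8.84) and 13.2-fold (11.1 to 15.7) at the 3 WT stages, and Cdk1 in the KO at 12.2-fold. The highest were Kif23, a kinesin of the central spindle, at 149-fold (77.4 to 328) and 367-fold (168 to 1004) at E14.5 and E18.5, Bub1, a checkpoint kinase, at 737-fold (129 to 29416) with 1 UMI on the low side at P5, and Aspm at 434-fold (169 to 1597) in the KO. The 3 genes outside both groups went with G2/M: Diaph3 was 27.6-fold, 34.6-fold, 71.9-fold and 43.1-fold higher in the order E14.5, E18.5, P5 and KO, Neil3 66.6-fold, 68.3-fold, 174-fold and 92.8-fold, and Esco2 112-fold, 97.9-fold, 365-fold and 306-fold.

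G1/S genes did not move as 1 group in this comparison. Their medians were 1.88-fold, 2.13-fold, 3.32-fold and 2.24-fold in the same order. Rrm2, the small subunit of ribonucleotide reductase, was 5.45-fold (3.07 to 9.85), 17.96-fold (10.4 to 33.3), 43.1-fold (14.6 to 172) and 20.5-fold (9.41 to 53.0) higher, and Brca1 10.1-fold (7.51 to 13.8), 9.80-fold (8.06 to 11.98), 17.8-fold (12.2 to 26.6) and 10.7-fold (8.36 to 13.7). These 2 stood nearer to G2/M genes than to the helicase. Mcm6 was lower in G2/M-high nuclei at E14.5 (0.474, 0.317 to 0.686) and E18.5 (0.767, 0.627 to 0.934) and within counting error of 1 at P5 (1.23, 0.748 to 1.94) and in the KO (0.816, 0.643 to 1.03). Ccnd1 was within counting error of 1 in each of these 4 libraries, from 0.735 at P5 to 1.36 in the KO. Mcm6, Ccnd1, Mcm3 and E2f1 thus had ratios below 2 in each of these libraries, unlike Rrm2 and Brca1. Apart from Mcm3, these genes are named because they had the highest or the lowest G1/S ratio in 1 or more libraries, so they show the extremes.

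**Figure D4:**
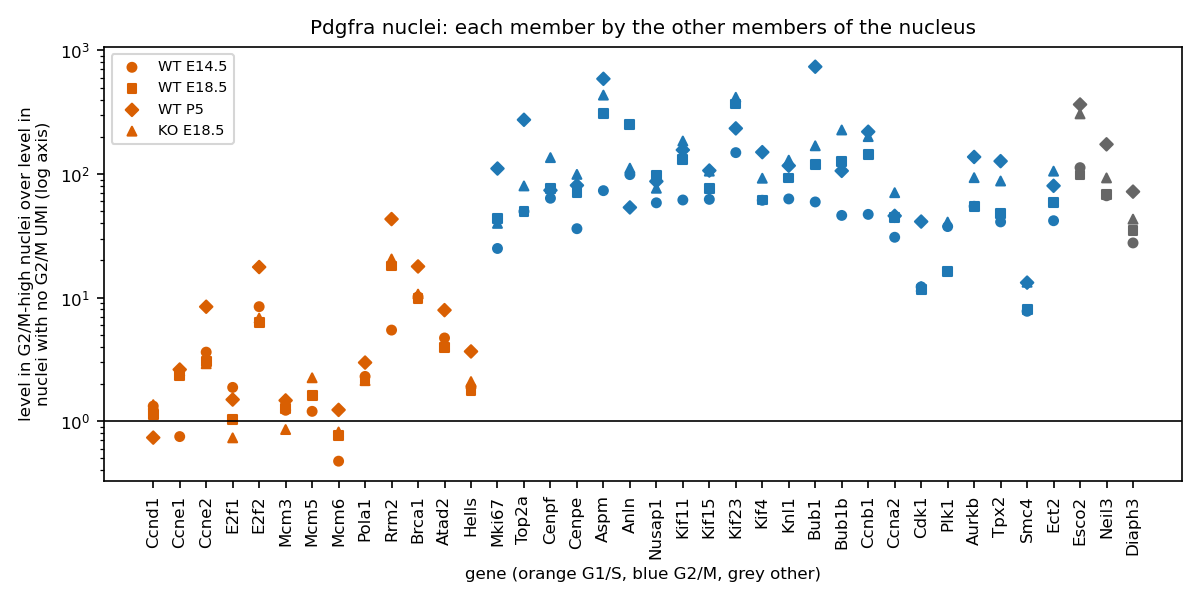
Level of each gene in G2/M-high Pdgfra nuclei over its level in Pdgfra nuclei with no G2/M UMI after thinning (log axis), the gene itself left out of the call, for genes with at least 20 UMIs in WT E14.5, WT E18.5, WT P5 and KO E18.5 nuclei. Blue G2/M genes and the 3 grey genes lie at 7.74-fold or above, and orange G1/S genes run from 0.474 (Mcm6) to 43.1 (Rrm2).

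In myonuclei the low levels that were left followed the stages as well. The G2/M sum was 2.58 times as high at E18.5 as at E14.5 (2.41 to 2.76), 0.422 times at P5 what it was at E18.5 (0.398 to 0.448), and 0.183 times in the adult what it was at P5 (0.164 to 0.204). The last ratio was 0.318 in myonuclei with no UMI of the 4 markers and 0.319 without nuclei near the sarcomere limit. Against P5, 29 of 33 members were at least 2-fold lower in the adult, where 35.2% of 14626 genes were. Top2a was at 9.43, 34.47, 10.1, 0.203 and 47.1 CPM in the order E14.5, E18.5, P5, adult and KO, Smc4 at 21.7, 63.4, 33.3, 8.57 and 61.1 CPM, Mki67 at 4.92, 19.4, 6.43, 0.254 and 31.5 CPM and Kif15 at 6.66, 18.3, 8.28, 0.761 and 27.8 CPM. All of these peaked at E18.5 among WT stages. Pola1 was flatter, at 99.3, 68.9, 81.4, 57.3 and 95.1 CPM, with Atad2 at 14.6, 40.9, 18.7, 4.36 and 41.5, Hells at 19.5, 20.6, 13.8, 4.46 and 22.8 and E2f2 at 4.71, 17.2, 5.95, 1.52 and 16.5 CPM. Tpx2, a spindle assembly factor, had the highest ratio of adult to P5 myonuclei, 1.04 (0.727 to 1.49), and Ccnd1 the lowest, 0.00819 (0.000205 to 0.0470; 1 UMI in the adult). Esco2 had the highest ratio of E18.5 to E14.5, 9.90 (4.35 to 27.8).

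In the KO 29 of 38 members were higher in myonuclei than in the WT at E18.5 (47.2% of 15762 genes), 21 of 22 among G2/M genes, and the G2/M sum was 1.42 times as high (1.35 to 1.48). Kif23 had the highest ratio, 2.50 (1.90 to 3.32), and Ccnd1 the lowest, 0.311 (0.208 to 0.455). Part of these nuclei also held RNA of another class. Of KO myonuclei with no G2/M UMI after thinning, 24.97% had a UMI of Pax7, Pdgfra, Pecam1 or Ptprc. Of the 38 G2/M-high ones 84.2% did, and these had a median of 17231 UMIs against 10017. At E14.5, E18.5 and P5 the shares were 6.52%, 23.3% and 18.53% without a thinned G2/M UMI and 55.6%, 57.1% and 80.0% in the 9, 28 and 10 G2/M-high myonuclei. The G2/M sum was 915 CPM in KO myonuclei with a marker UMI and 121 CPM in those without, and 510 and 184 CPM in the WT. Without nuclei that held a marker UMI the KO over WT ratio was 0.658, and 3 of 19 G2/M genes were above 1 instead of 21 of 22, so the higher G2/M level was not seen in KO myonuclei without another class's marker. Over all kept nuclei of the libraries before the adult the G2/M sum was lower the more sarcomere RNA the nuclei held. At E18.5 it was 2272 CPM in nuclei below 0.5 times the sarcomere limit, 1094 CPM from there to the limit, 608 CPM up to 2 times the limit and 124 CPM above, and the KO values were 3168, 1163, 673 and 162 CPM. The adult did not follow this order, with 65.8, 12.2 (1 UMI), 19.7 and 23.1 CPM.

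Diaph3, a formin that nucleates actin filaments and serves cytokinesis, departed from the other members in myonuclei; it and the splits below were chosen after its values were seen. It was at 115 CPM in E14.5 myonuclei (1122 UMIs), 53.0 for E18.5, 25.01 for P5, 1.12 for the adult and 79.1 for the KO, so it was highest at E14.5, while the G2/M sum of WT myonuclei was highest at E18.5. Its ratio of E18.5 to E14.5, 0.461 (0.419 to 0.508), was the only one of the 38 at least 2-fold lower, where 10.3% of 15472 genes were, and 36 of 38 were higher at any size (59.2% of all genes). In Pdgfra nuclei it moved with the rest, from 301 to 460 to 257 CPM, with no UMI in the adult and 614 CPM in the KO. Diaph3 UMIs were 12.2 times those of Top2a in E14.5 myonuclei (9.85 to 15.3) and 1.83 times in E14.5 Pdgfra nuclei (1.69 to 1.99). In E14.5 myonuclei 27.2% of nuclei held a Diaph3 UMI, in E18.5 myonuclei 9.68% and in adult myonuclei 0.387%. Of its 1122 UMIs in E14.5 myonuclei 770 were in nuclei with no G2/M transcript. In these 1376 nuclei, counted before thinning, it was at 111 CPM (26.6% of nuclei), against 20.3 CPM (5.32%) in the 658 Pdgfra nuclei with none. In the 1693 myonuclei with no UMI of the 4 marker genes it was at 110 CPM, and in the 505 above 2 times the sarcomere limit at 129 CPM. In E18.5 myonuclei with no G2/M UMI it was at 11.0 CPM, 0.0989 times the E14.5 level, and at P5 at 4.39 CPM. The RNA of Diaph3 in all E14.5 myonuclei was 0.382 times and in all E18.5 myonuclei 0.115 times that in Pdgfra nuclei. ATAC counts in peaks within 500 bases of its start in the files did not follow this. Relative to the total of the class they were 2.03 times as high in myonuclei as in Pdgfra nuclei at E14.5 (1.01 to 4.49; 96 and 20 counts) and 3.22 times at E18.5 (1.79 to 6.30; 119 and 28 counts). The median over all genes was 0.847 and 0.996. No RefSeq window was found within 500 bases of that start, so whether the counted peak marks the Diaph3 promoter was not tested.

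For G2/M genes, ATAC at the promoter differed less between myonuclei and Pdgfra nuclei than RNA did, going by the medians in the 4 libraries other than the adult. A peak within 500 bases of the start was found for 37 of 38 members at both fetal WT stages, for 36 in P5, 35 in adult and 36 in KO nuclei, against 45.8% to 49.6% of genes. Atad2 had none in any library, Diaph3 lacked one in P5 and adult nuclei, and Ccnd1 in adult and KO nuclei. For each of these genes no RefSeq window was found within 500 bases of the start used. Ccne2, Ccna2, Aurkb, Tpx2, Smc4 and Esco2 also lacked such a window but had a peak in each library. A missing peak may therefore reflect the start used rather than closed chromatin, which was not tested. Peaks were called in each library alone, so classes are compared within a library; since most ATAC counts were even, their intervals rest on counts taken in pairs. At G2/M genes myonuclei held a median of 0.813 times the promoter ATAC of Pdgfra nuclei for E14.5, 0.931 for E18.5, 0.818 for P5, 0.992 for the adult and 0.906 for the KO. For all genes with a promoter peak these medians were 0.847, 0.996, 0.967, 0.917 and 0.917. The G2/M medians were lower than these in each library but the adult, most so at P5. Below 1 were 21 of 22 G2/M genes at E14.5 (74.6% of all genes), 17 of 22 at E18.5 (50.5%) and 15 of 22 at P5 (54.8%). In the adult 11 of 21 were (60.3%) and in the KO 14 of 22 (61.9%). The RNA of the G2/M genes stood at medians of 0.0607 for E14.5, 0.116 for E18.5, 0.106 for P5 and 0.132 for the KO. Of the G2/M genes with an ATAC ratio in the adult, only 3 had any UMI in Pdgfra nuclei, and Cenpf among them had none in myonuclei. No RNA median is therefore set beside the ATAC one. For G1/S genes the ATAC medians were 0.711, 0.833, 0.936 and 0.771 in the same 4 libraries and the RNA medians 0.125, 0.172, 0.229 and 0.209. Single G1/S genes did not share this gap: E2f2 in the KO had an ATAC ratio of 0.770 and an RNA ratio of 0.836, and Pola1 in the adult 0.482 and 0.578; both were singled out after their values were seen. Top2a promoter ATAC in myonuclei was 0.827 times that in Pdgfra nuclei at E14.5 (0.670 to 1.03) with RNA at 0.0575 times, Mki67 0.740 times (0.596 to 0.919) with RNA at 0.0606 times, and Smc4 0.845 times (0.698 to 1.03) with RNA at 0.123 times. Of these 3, only Mki67 differed beyond counting error, and by far less than its RNA. Mcm6 was lower, at 0.542 (0.423 to 0.690) for E14.5 and 0.538 (0.447 to 0.647) for E18.5. Between Pax7 and Pdgfra nuclei G2/M promoters had medians of 1.07 for E14.5, 1.01 for E18.5, 1.20 for P5 and 1.30 for the KO, with RNA at 3.28, 2.05, 2.55 and 1.83.

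**Figure D5:**
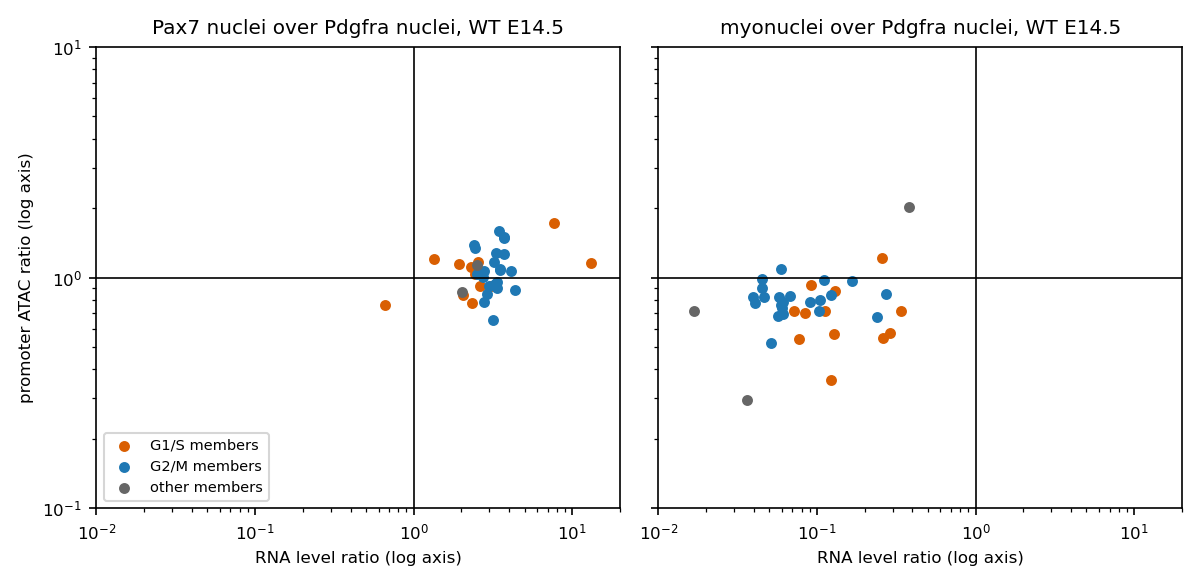
Promoter ATAC ratio against RNA ratio (both log axes) for each member with a peak and at least 20 counts in both classes at WT E14.5, Pax7 over Pdgfra nuclei (left) and myonuclei over Pdgfra nuclei (right). In the right panel the RNA ratios lie far below 1 while the ATAC ratios of G2/M genes stay between 0.522 and 1.09, and the grey point at 2.03 is Diaph3, for which no RefSeq window was found near the start used.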

How the data were processed

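The counts of UMIs per gene and of ATAC cuts per peak in each nucleus were deposited by the authors as whole numbers, 1 matrix per library; the submitters' processing notes name Cell Ranger ARC 2.0.0 and mm10, and reads in introns are included. Nuclei with 400 to 25000 UMIs were kept. Myonuclei had more than 1.5% of UMIs (4% in the adult) from Ttn, Neb, Trdn and Ryr1, and below that limit a nucleus with at least 1 UMI of exactly 1 of Pax7, Pdgfra, Pecam1 and Ptprc belonged to that class. Doublets were not called, and nuclei with several markers (72, 128, 74, 2 and 173) or none were set aside. UMIs were summed over each class and divided by its total (CPM). CPM have exact Poisson intervals, ratios exact conditional binomial intervals and shares Clopper-Pearson intervals, all at 95%. With 1 library per group no p-value was computed. Counts of genes past a ratio cover genes with 20 or more UMIs over the pair of sums, where a sum of 0 was set to 3 counts. For shares of nuclei each nucleus was thinned to 1000 UMIs, and shallower nuclei were left out, 35 of 137 adult Pdgfra nuclei and 13 of 24 adult Pax7 nuclei among them. ATAC counts in peaks within 500 bases of a start were summed by class; 83.1% to 84.5% of nonzero ATAC values were even, so intervals were computed on counts divided by 2. The number of KO nuclei stated in the study is above the 3621 barcodes listed here. The members and all gene lists were chosen with earlier results of these data known. In comparisons of libraries the genes named were taken from the 4 of each group with most UMIs in the class and those with the highest and the lowest ratio. Not all of these are given each time, and no G1/S gene is named for Pecam1 and Ptprc nuclei. In the comparison with G2/M-high nuclei the genes with most UMIs are not listed as such. The G1/S and G2/M genes named there, apart from Mcm3, had the highest or lowest ratio. The 3 genes in neither group and Diaph3's splits were added after their values were seen. The functions were tested on simulated data. Python 3.11.15, numpy 2.4.6, scipy 1.17.1, pandas 2.3.3 and matplotlib 3.10.9 were used.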

Additional observations from a re-analysis of the deposited data

Results flagged for a closer look

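Between E14.5 and E18.5 the G2/M sum went in opposite directions in different classes, with intervals of counting error on opposite sides of 1. It was 1.54 times as high at E18.5 in Pdgfra nuclei (1.5 to 1.58) and 1.64 times in Ptprc nuclei (1.44 to 1.88), but 0.621 times in Pecam1 nuclei (0.571 to 0.674). The G1/S sum did the same, at 1.21 in Pax7 nuclei (1.14 to 1.29) and 1.14 in Pdgfra nuclei (1.10 to 1.17), but 0.794 in Pecam1 nuclei (0.712 to 0.885). It was 1.00 in Ptprc nuclei (0.843 to 1.20), and the value in Pax7 nuclei was 1.01 when they were taken whatever the other 3 markers showed. Between KO and WT at E18.5 the G2/M sum was 1.08 times as high in Pax7 nuclei (1.04 to 1.12), 1.26 in Pdgfra nuclei (1.24 to 1.28) and 1.42 in Pecam1 nuclei (1.32 to 1.53), but 0.597 in Ptprc nuclei (0.552 to 0.645). With 1 library per group none of these differences between classes was tested.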

How the results depend on the processing

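No paired analysis was possible because each group is 1 library. Values are ratios, stages in the order E18.5 over E14.5, P5 over E18.5, adult over P5, with KO over WT named. Taking a class whatever the other 3 markers showed, the G2/M ratio was 0.944 (Pax7, E18.5 over E14.5), 1.18 (Pax7, KO), 1.498 (Pdgfra, E18.5 over E14.5) and 0.467 (Pdgfra, P5 over E18.5), and the G1/S ratio 1.01 (Pax7, E18.5 over E14.5). With at least 2 UMIs of the marker, G2/M was 0.796 (E18.5 over E14.5), 0.664 (P5 over E18.5) and 1.49 (KO) in Pax7 and 0.463 (P5 over E18.5) in Pdgfra nuclei, and G1/S in Pdgfra nuclei 1.18 (E18.5 over E14.5) and 1.00 (KO, where the direction turned). Without Top2a, G2/M was 0.991 (Pax7, E18.5 over E14.5) and, in Pdgfra nuclei, 1.48, 0.456 and KO 1.30. Without Pola1, G1/S was 0.0271 (adult over P5) and 0.824 (KO) in Pax7 nuclei, 1.22, 0.490, 0.115 and KO 0.847 in Pdgfra nuclei, and 1.99, 0.498, 0.281 and KO 0.946 (turned) in myonuclei. With each nucleus weighing the same, G2/M was 0.698 (P5 over E18.5) and 1.17 (KO) in Pax7, 1.29 (KO) in Pdgfra, and 2.05, 0.598, 0.208 and KO 1.56 in myonuclei, and G1/S 1.08 (E18.5 over E14.5) and 0.964 (KO) in Pax7 and 1.09, 0.923 and KO 1.18 in myonuclei. Leaving out nuclei near the sarcomere limit, G2/M was 1.18 (Pax7, KO), 1.47 (Pdgfra, E18.5 over E14.5), 1.29 (Pdgfra, KO) and, in myonuclei, 2.37, 0.585, 0.319 and KO 1.30, and G1/S 0.958 (Pax7, KO) and, in myonuclei, 0.966 (turned), 0.893, 0.684 and KO 0.897 (turned). Without nuclei above 15000 UMIs, G2/M was 1.15 (Pax7, KO) and, in myonuclei, 1.75, 0.526, 0.247 and KO 1.34, and G1/S 0.975 (Pax7, KO) and, in myonuclei, 1.06, 0.797, 0.588 and KO 1.01. In myonuclei with no UMI of the 4 markers, G2/M was 1.98, 0.363, 0.318 and KO 0.658 (turned), and G1/S 0.909 (turned), 0.807, 0.675 and KO 0.996 (turned). With no upper UMI limit, chosen after seeing the data, G2/M in myonuclei was 3.59, 0.379, 0.128 and KO 1.73, and G1/S 0.925 (Pdgfra, KO) and, in myonuclei, 1.68, 0.643, 0.422 and KO 1.24. At a fold of 1.5 the members counted became 23 (Pax7, P5 lower), 16 (Pdgfra, E18.5 higher), 36 (Pax7 over Pdgfra at E18.5) and 31 (the same in the KO), and with at least 50 UMIs 19 (myonuclei, adult lower). The cause of these shifts was not tested. Of 92 alternative G2/M ratios 53 moved by less than counting error, as did 55 of 92 G1/S ratios; 23 of 28 counts of members stayed within 1.5 times. Of 60 alternative shares of G2/M-high nuclei 35 moved beyond their interval, such as 17.4% of E18.5 Pdgfra nuclei to 32.6% with no thinning and to 13.6% with at least 5 G2/M UMIs. Of 16 alternative Diaph3 ratios 14 moved beyond counting error. The KO directions by gene and the splits for Diaph3 were also tried after seeing the data. In Pdgfra nuclei 20 to 22 of 22 G2/M genes were higher in the KO and 12 of 13 G1/S genes lower under each alternative run. Replicates were lacking, adult classes other than myonuclei held too few UMIs for single genes, and intervals hold for counting error only.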

Other observations

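Some regulators of the cycle that are not members were found with the G2/M genes in the same nuclei; they are named after their values were seen. G2/M-high Pdgfra nuclei were compared with those that had no G2/M UMI after thinning. In the former Cdkn2c, an inhibitor of the kinases bound by D-type cyclins, was 24.4-fold higher at E14.5, 32.6-fold at E18.5 (16.6 to 73.1), 42.1-fold at P5 (19.6 to 104) and 32.1-fold in the KO (16.4 to 71.8). Rbl1, the pocket protein p107, was 3.02-fold, 3.43-fold, 7.00-fold and 5.94-fold higher. Ccnd2 and Ccnd3, the other D-type cyclins, had less RNA in the G2/M-high nuclei. Ccnd2 was at 0.484, 0.679, 0.595 and 0.646 times and Ccnd3 at 0.764, 0.672, 0.732 and 0.467 times the level in nuclei with no thinned G2/M UMI. Cdkn1c, the inhibitor p57, stood at 0.954, 0.849, 0.540 and 0.852 times.

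Summed over Pdgfra nuclei, Ccnd3 was at 47.6 CPM at P5 and 240 CPM in the adult (5.03 times, 3.79 to 6.63), while Cdkn1c was at 103 CPM at P5 and 3.42 CPM in the adult (1 UMI; ratio 0.0333, 0.000841 to 0.186). Ccnd2 was at 122 CPM in the WT and 59.0 CPM in the KO at E18.5 (0.484, 0.432 to 0.541), and Cdkn2c at 13.9 and 20.1 CPM (1.44, 1.13 to 1.85). Nuclei with none of the 4 markers and little sarcomere RNA had G2/M sums of 1425 CPM for E14.5, 1568 for E18.5, 634 for P5, 60.5 for the adult and 2344 for the KO, against 1488, 2290, 1007, 51.4 and 2884 CPM in Pdgfra nuclei.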
